A study of Mus musculus with 6 samples.

Results

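Heparan sulfate proteoglycans are proteins that carry long sulfated sugar chains at the cell surface and in the basement membrane. The 10 genes described here encode heparanase (Hpse), 3 syndecans (Sdc1, Sdc2 and Sdc4), 3 glypicans (Gpc1, Gpc4 and Gpc6), perlecan (Hspg2) and the extracellular sulfatases Sulf1 and Sulf2. They were picked by gene name from 34745 listed genes, and they were chosen by earlier results of the same contrast, so their differences, and any threshold they pass, are given as a description and support nothing. Of these 10, 5 had more than 500 counts summed over all libraries and entered the fit of 10046 genes (Hpse, Sdc1, Sdc4, Gpc1 and Hspg2).

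Syndecans span the membrane and glypicans are held in it by a lipid anchor, and both present growth factors such as FGFs to their receptors through their chains. Perlecan is a secreted core protein of basement membranes. Heparanase cuts heparan sulfate chains and releases what they hold, while the Sulf enzymes remove 6-O-sulfate groups from chains outside the cell. In epithelial tumors these proteins are known for their part in matrix remodelling and growth factor signaling.

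RNA came from the mouse lung cancer line 889, of strain C57BL/6, in 3 control libraries (sg-con) and 3 libraries whose treatment label reads KIAA1522-downregulated (sg-kiaa1522). Per the study's methods, both groups carried Cas9 from a lentiviral CRISPR vector, with an EGFP sgRNA as the control or an sgRNA against kiaa1522, and transduced cells were obtained by puromycin or by sorting. Those methods do not say whether single clones were used. The sgRNA behind the sequenced libraries is not given in the sources used here. The comparison asks which transcripts differ when cells carry the kiaa1522 sgRNA. The labels do not say that the replicates were separate cultures, so p-values measure the spread between these libraries, which may be technical.

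Total counts lay between 12220001 and 18609376 per library, with the lowest in sg-kiaa1522 replicate 1. The targeted gene, listed as C77080, went against the label at the level of mRNA. Its levels in CPM (counts scaled by the TMM-normalized library size) were 127, 130 and 124 in sg-con and 210, 203 and 216 in the libraries labelled sg-kiaa1522. The log2 fold change was 0.73 (SE 0.0569, adjusted p = 9.1e-05 after Benjamini-Hochberg adjustment in edgeR). The direction given for every gene below is therefore that of the libraries as labelled. Transcript levels alone do not show the protein.

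Of the epithelial markers, Krt8, Krt18, Krt19, Cdh1 and Nkx2-1 had enough counts and Epcam was at 0 in all 6 libraries. Over the 9 epithelial markers the summed level lay between 3873 and 4593 CPM in sg-con and between 3260 and 3509 CPM in sg-kiaa1522, and 4 of the 5 tested markers fell in the same edgeR test. The 8 fibroblast markers summed to 467 to 486 CPM in sg-con and 167 to 198 CPM in sg-kiaa1522. Both tested ones (Col1a2 and Pdgfrb) fell, and Thy1 was at 0. Col1a1 held 20 to 137 counts per library, and Col3a1, Pdgfra, Dcn and Lum held at most 7. The 7 leukocyte markers summed to 1.29 to 2.70 CPM in sg-con and 10.1 to 13.0 CPM in sg-kiaa1522, with Cd68 the one tested and higher, and Adgre1 and Cd3e at 0. The 5 endothelial and 5 mast cell markers summed to at most 1.66 and 0.115 CPM in any library. In bulk RNA, fewer cells of a type and less RNA per cell cannot be told apart, and the part of these shifts in the results below was not tested.

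The member with the largest difference was Hpse, and among the other core protein genes Sdc3 moved the other way. The 250 bases before the start of each are shown because these 2 genes moved by the most in opposite directions among heparanase and the core proteins that had enough counts. They come from RefSeq on GRCm38.p6 and read 5' to 3' on the strand of the gene, for Hpse chr5:100719717-100719966 on the minus strand and for Sdc3 chr4:130792287-130792536 on the plus strand. Capitals mark the GC box, GGGCGG on either strand.
Hpse: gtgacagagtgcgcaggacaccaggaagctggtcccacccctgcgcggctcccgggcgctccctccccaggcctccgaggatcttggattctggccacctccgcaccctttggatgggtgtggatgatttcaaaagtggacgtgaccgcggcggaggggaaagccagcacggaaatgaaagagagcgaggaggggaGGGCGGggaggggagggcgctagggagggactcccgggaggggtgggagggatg
Sdc3: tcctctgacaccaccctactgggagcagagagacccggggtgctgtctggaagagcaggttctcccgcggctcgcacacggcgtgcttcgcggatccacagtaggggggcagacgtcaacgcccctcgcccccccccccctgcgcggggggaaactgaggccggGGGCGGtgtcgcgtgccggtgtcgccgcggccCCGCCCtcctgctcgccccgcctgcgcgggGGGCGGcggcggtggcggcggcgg

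Promoters were found in the RefSeq table for 6 of the 10 members. The GC box occurs 1 time in the Hpse window and 3 times in the Sdc3 window, and 3 times before Sdc1, 4 times before Sdc4 and 5 times before Hspg2. Gpc4 has 1 in its window, and the windows of Sulf2 have 0 and 1. The GC box is held by 32.7% of 32851 mouse promoters of the same length. Hpse and Sdc3 hold no match on either strand to the TATA box TATAAA (12.4% of promoters), the E-box CACGTG (6.02%), the AP-1 motif TGANTCA (6.75%), the EGR motif GCGNGGGCG (4.70%) or the NF-kappa-B consensus as searched (7.25%). The letters of that consensus are not given here. Other forms of it were not searched and could match where it does not. The kappa-B consensus occurs 1 time each before Sdc1 and Sdc4, and the TATA box 1 time before Sulf2. Every motif was searched on both strands, an EGR match can share bases with a GC box, and a match is a description of the letters in the window. The Hpse window is 66.8% G and C, against a median of 52.4% over all promoters. The windows of the other members and of Sdc3 ran from 57.2% (Sulf2) to 76.4% (Sdc3).

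Heparanase mRNA was far lower in sg-kiaa1522. Hpse (ENSMUSG00000035273, chromosome 5 from 100679484 to 100719716 on the minus strand of GRCm38) had 947, 994 and 970 counts in sg-con and 51, 73 and 78 counts in sg-kiaa1522. These are 54.3, 53.6 and 58.2 CPM against 4.20, 3.98 and 4.59 CPM. The 2 groups lay far apart, with little spread inside either one. The mean fell from 55.4 ± 2.46 to 4.26 ± 0.310 CPM (SD, n = 3), which is 13.0-fold lower, with a log2 fold change of -3.70 (SE 0.0994).

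Leaving out each library in turn kept the Hpse log2 fold change between -3.76 and -3.65. The median log2 fold change of the tested genes on chromosome 5 was 0.01, so the value of Hpse is nearly the same relative to its chromosome. Hpse passed the filter on low counts through sg-con, since its sg-kiaa1522 libraries together held 202 counts, and it ranked 6 among the tested genes by the size of its fall. Per transcript length, in length-normalized transcript units (TPM), Hpse stood at 40.4 ± 1.70 in sg-con and 3.32 ± 0.294 in sg-kiaa1522 (SD, n = 3). Among all tested genes this moved Hpse from percentile 66.8 to percentile 3.2 of TPM.

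**Figure D1:**
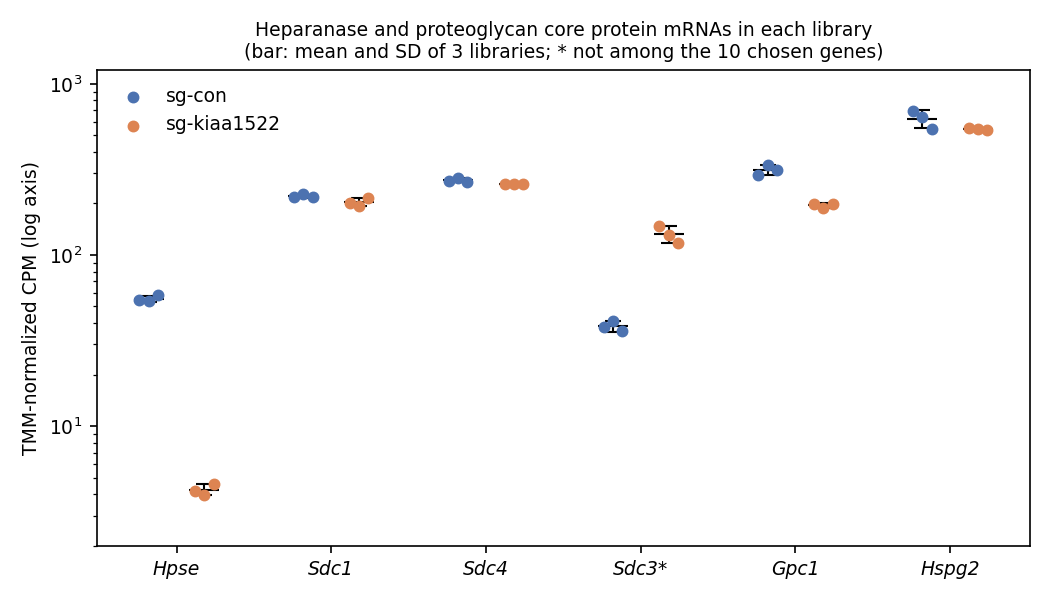
TMM-normalized CPM on a log axis for the 5 members with enough counts and for Sdc3, with 1 point per library and the mean and SD of 3 libraries. Hpse lies between 53.6 and 58.2 CPM in sg-con and between 3.98 and 4.59 CPM in sg-kiaa1522, while for Sdc1, Sdc4 and Hspg2 the groups lie close to each other.

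The tested genes around Hpse differed by far less than Hpse itself. Within 500 kb, a window chosen after the values were seen, 10 other genes were tested, of which 5 fell and 3 rose at an adjusted p of at most 0.05 in the edgeR test, against 26.3% lower and 26.3% higher among all tested genes. Their log2 fold changes ran from -0.71 for Mrps18c to 0.62 for Lin54. Coq2, whose start is the nearest, had -0.47 (SE 0.0909, adjusted p = 0.0038, edgeR with Benjamini-Hochberg adjustment), and Helq had -0.12 (SE 0.105) and did not pass.

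**Figure D2:**
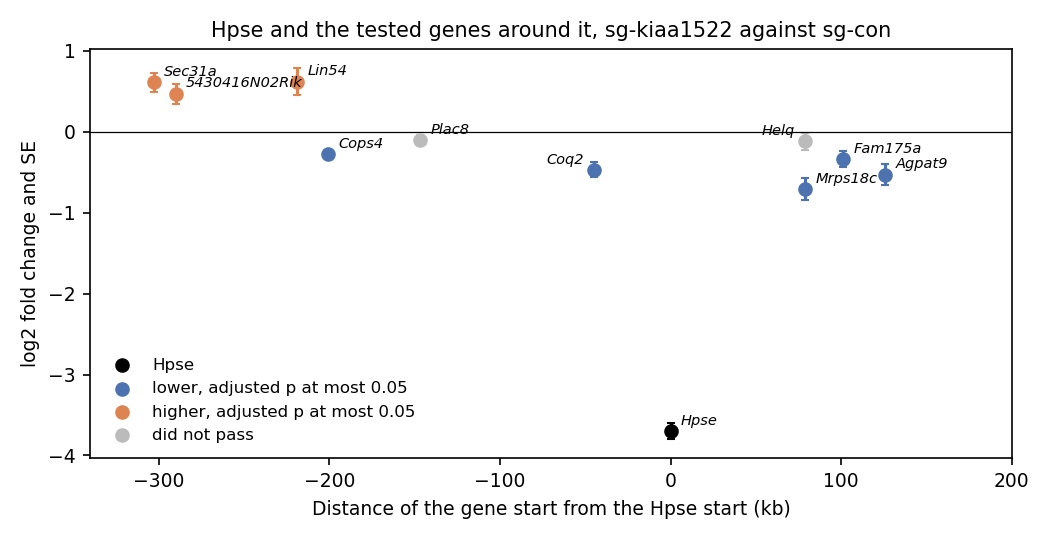
Log2 fold change with its SE, sg-kiaa1522 against sg-con, of Hpse and the 10 other tested genes within 500 kb, by the distance of each gene start from the Hpse start in kb. Hpse stands at -3.70 and the others between -0.71 and 0.62.

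By root-mean-square distance between log2(CPM + 0.5) profiles over the 6 libraries, each centred on its sg-con mean, the 3 genes most like Hpse were Smoc2, Cxcl1 and AU021092. Smoc2, which encodes a matricellular protein of the SPARC family, was at a distance of 0.267 and went from 26.2 ± 0.785 to 1.84 ± 0.706 CPM. Cxcl1, a chemokine that draws neutrophils, was at 0.382 and went from 46.2 ± 2.81 to 5.12 ± 0.711 CPM. AU021092 was at 0.393 and went from 12.2 ± 1.90 to 0.896 ± 0.370 CPM (all SD, n = 3). The likeness rests on the contrast that chose Hpse and is given as a description.

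Of the members with enough counts, 2 of 5 passed an adjusted p of at most 0.05 as lower (Hpse and Gpc1), against 26.3% of all 10046 genes, and 0 passed as higher, against 26.3%. With the added demand that log2 fold changes reach 1 in size, 1 member was lower (Hpse) against 4.34% of all genes, and 0 were higher against 2.74%. These are calls of the edgeR quasi-likelihood test. At the adjusted threshold DESeq2 also called 2 members lower and 0 higher, against 2612 lower and 2675 higher among all genes. The 2 groups did not overlap for 4 of the 5 members, each lower, against 31.1% of all genes lower and 30.6% higher, and Hspg2 was the member that overlapped. All 5 log2 fold changes were below 0, with a median of -0.20, against 50.6% of all tested genes below 0 and a median of -0.00672. Nothing is read from these counts, since the members were chosen from this contrast.

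Glypican 1 came next. Gpc1 (ENSMUSG00000034220, chromosome 1) had 5149, 6184 and 5215 counts in sg-con and 2412, 3442 and 3363 counts in sg-kiaa1522. In CPM the libraries were at 295, 334 and 313 against 199, 188 and 198. Every sg-kiaa1522 library was lower than every sg-con library, by 1.61-fold between the fitted means, with a log2 fold change of -0.69 (SE 0.0659) that stayed between -0.74 and -0.65 when each library was left out.

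The tested genes on chromosome 1 had a median log2 fold change of -0.21, and relative to it the Gpc1 value was -0.48. Of the Gpc1 exon length, 18.9% is shared with the antisense gene Ankmy1, and since the use of strand in counting is not given, reads there cannot be assigned to one of them. Ankmy1 itself held 3 to 20 counts per library. Gpc1 was the one glypican among the members above the filter.

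Perlecan did not separate the groups. Hspg2 (ENSMUSG00000028763, chromosome 4), with the most counts of the members, stood at 694, 638 and 543 CPM in sg-con and at 552, 548 and 538 CPM in sg-kiaa1522. The sg-con libraries spread widely, and replicate 3 fell within the range of sg-kiaa1522. The log2 fold change was -0.20 (SE 0.0895), and without sg-con replicate 3 it was -0.29 and past the adjusted threshold.

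Both syndecans among the tested members were nearly level. Sdc1 (ENSMUSG00000020592, chromosome 12), the main syndecan of epithelia, stood at 218, 226 and 218 CPM in sg-con and at 202, 194 and 216 CPM in sg-kiaa1522. Sdc4 (ENSMUSG00000017009, chromosome 2), a syndecan of focal adhesions, stood at 272, 282 and 268 CPM in sg-con and at 260, 260 and 261 CPM in sg-kiaa1522. The sg-kiaa1522 libraries were slightly below the sg-con libraries for each gene, with log2 fold changes of -0.11 (SE 0.0630) for Sdc1 and -0.08 (SE 0.0530) for Sdc4.

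The mean of Sdc1 was lower in sg-kiaa1522 on every scale used, while the direction of Sdc4 depends on the scale. The medians of the tested genes on their chromosomes were 0.12 and 0.14, and relative to these Sdc1 was at -0.23 and Sdc4 at -0.22. In TPM by summed exon length, Sdc4 was at 276 ± 8.12 in sg-con and 279 ± 4.82 in sg-kiaa1522, the opposite order, and by mean transcript length at 225 and 220. By summed exon length Sdc1 was at 149 ± 3.04 and 147 ± 10.6 (SD, n = 3). In TPM its groups overlapped by either length. For Sdc1, sg-kiaa1522 replicate 3 was at 158 and 207 TPM, and the highest sg-con library at 151 and 205 TPM.

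**Figure D3:**
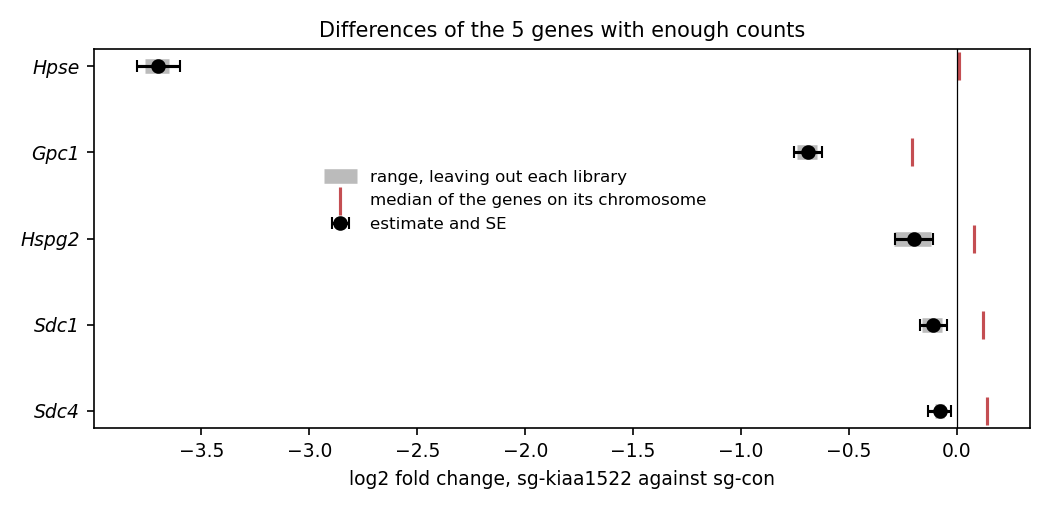
Log2 fold change, sg-kiaa1522 against sg-con, of the 5 tested members (black, with SE), the range when each library is left out (grey) and the median of the tested genes on the same chromosome (red). Hpse stands at -3.70 and Gpc1 at -0.69, and the other 3 lie between -0.20 and -0.08.

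The other 5 members were at or near 0 in these cells. Gpc4 and Sulf1 had 0 counts in all 6 libraries, Sdc2 had 3 counts in sg-con replicate 1 and 0 elsewhere, and Gpc6 had 1 count in sg-con and 2 in sg-kiaa1522. A count of 0 in all libraries of a group allows up to 3 counts over the group, or 0.057 CPM in sg-con and 0.0632 CPM in sg-kiaa1522, counting error only. So a difference in these 4 genes was not detectable at this depth.

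Sulf2 was the exception among the scarce members. It had 0, 0 and 1 counts in sg-con and 11, 2 and 3 counts in sg-kiaa1522, where replicate 1 held most of them. The ratio of CPM was 17.7 (95% exact interval 2.76 to 744, counting error only), and without sg-kiaa1522 replicate 1 it was 7.45 (0.834 to 352). Of the Sulf2 exon length, 2.62% is shared with the antisense gene Ncoa3, which held 843 to 1507 counts per library. Since the use of strand in counting is not given, Sulf2 counts from the shared bases cannot be told apart from Ncoa3 reads.

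Levels between genes can be compared per length. In TPM by summed exons the order in sg-con was Sdc4 (276), Gpc1 (156), Sdc1 (149), Hspg2 (112) and Hpse (40.4), and Gpc1 and Sdc1 met at 151 in their closest libraries. In sg-kiaa1522 the order was Sdc4 (279), Sdc1 (147), Hspg2 (104), Gpc1 (103) and Hpse (3.32), and Hspg2 and Gpc1 overlapped. The order depends on the length used, since by mean transcript length Gpc1 was the highest in sg-con at 309 TPM, ahead of Sdc4 at 225 and Sdc1 at 202. Hpse was the lowest of the 5 in both groups by both lengths.

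Hpse was set against the transcripts of the member core proteins, which carry the chains that heparanase cuts. By summed exon length it stood at 5.84 ± 0.452 TPM per 100 TPM of their sum in sg-con and at 0.523 ± 0.0297 in sg-kiaa1522 (SD, n = 3). By mean transcript length it stood at 3.56 ± 0.259 and 0.336 ± 0.0172. This ratio and the sums that follow, by either length, were added after the data were seen. The summed core proteins themselves went from 693 ± 27.1 to 634 ± 20.1 TPM without overlap of the groups. With Sdc3 added the sums were 709 ± 28.1 and 694 ± 18.8 TPM, and the groups overlapped, but by mean transcript length they were 853 ± 29.0 and 796 ± 20.4 TPM and did not.

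Sdc3, the syndecan that is not among the members, is known from nerve and muscle and had the largest rise of the tested pathway genes. Its counts were 662, 764 and 596 in sg-con and 1798, 2405 and 2005 in sg-kiaa1522, or 38.0, 41.2 and 35.8 CPM against 148, 131 and 118 CPM. Every sg-kiaa1522 library was far above every sg-con library. Sdc3 rose 3.45-fold, with a log2 fold change of 1.79 (SE 0.102, adjusted p = 3.1e-05, edgeR with Benjamini-Hochberg adjustment), and the range over left-out libraries was 1.70 to 1.87. The median of chromosome 4 was 0.08, and 6.93% of the Sdc3 exon length is shared with the antisense gene Gm26716, which had 0 counts.

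The make-up of the syndecan transcripts shifted with Sdc3, in a comparison also added after the data were seen. Summed over the 4 syndecans, TPM went from 441 ± 12.3 to 486 ± 13.4 (SD, n = 3). Sdc3 made up 3.72%, 3.89% and 3.55% of it in the sg-con libraries and 13.7%, 12.5% and 11.0% in the sg-kiaa1522 libraries. By mean transcript length its share was larger in both groups, at 6.64% ± 0.301 and 20.8% ± 2.13. The share of Sdc4 went from 62.6% ± 0.114 to 57.4% ± 0.856 and that of Sdc1 from 33.7% ± 0.254 to 30.1% ± 1.44, and Sdc4 stayed the most abundant in all 6 libraries.

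**Figure D4:**
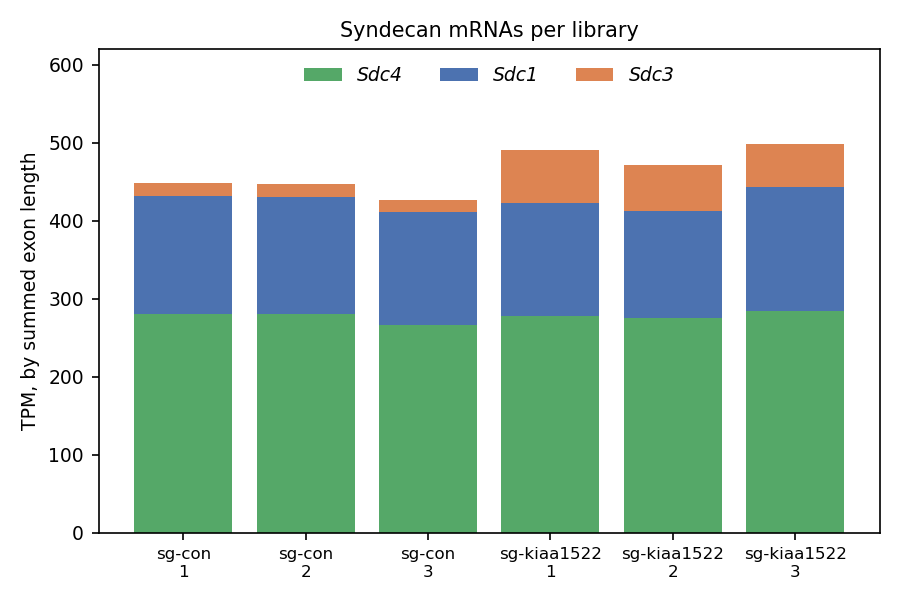
TPM by summed exon length of Sdc4, Sdc1 and Sdc3, stacked for each of the 6 libraries. The Sdc3 part grows from a mean of 16.4 TPM in sg-con to 60.5 TPM in sg-kiaa1522, while Sdc4 stays near 276 and 279 TPM.

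The rest of the heparan sulfate pathway was read from 6 lists of 89 genes, of which 46 had enough counts and 43 did not, 12 of these with 0 counts. In the edgeR test with Benjamini-Hochberg adjustment over all genes, 17 of the 46 fell (37.0%, against 26.3% of all genes), 7 rose (15.2%, against 26.3%) and 22 did not pass. The median log2 fold change was -0.08, against -0.00672 over all genes. With that fold demanded as well, 1 fell (Adam10) and 1 rose (Sdc3), 2.17% each, against 4.34% and 2.74% of all genes. Groups did not overlap for 19 lower genes (41.3%, against 31.1% of all genes) and 8 higher genes (17.4%, against 30.6%).

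Among the other core proteins, 1 of the 5 tested rose (Sdc3), against 26.3% of all genes. Agrin (Agrn) had 0.17, neuropilin 1 (Nrp1) 0.20, Cd44 -0.01 and collagen XVIII (Col18a1) 0.00 on the log2 scale, and none of these 4 passed. Without sg-con replicate 1, Agrn (0.20) and Nrp1 (0.31) passed as higher.

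In the genes that build the linker and polymerize the chain, 5 of 9 tested fell and 1 rose, against 26.3% lower and 26.3% higher among all genes, and Extl3 and Ext1 among them lost the call in settings given below. The co-polymerase subunit Ext2 went from 89.4 ± 5.48 to 64.2 ± 1.54 CPM (SD, n = 3), and its log2 difference was -0.48 (SE 0.0708, adjusted p = 0.0012, edgeR with Benjamini-Hochberg adjustment). Ext1, its partner in the polymerase complex, rose by 0.19 on the log2 scale (SE 0.0639, adjusted p = 0.04), but lost this call when any library except sg-con replicate 1 was left out (highest adjusted p = 0.12) and was at 0.09 relative to its chromosome. Extl2, a transferase that acts on the linker, fell by 0.56 (SE 0.103).

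Extl3, which starts the chain, passed as lower with -0.28 (SE 0.0809, adjusted p = 0.021, edgeR), yet it lost the call without sg-con replicate 2 or sg-kiaa1522 replicate 2 or 3 (highest adjusted p = 0.081). It lies on chromosome 14, and relative to the median of that chromosome (-0.38) it turned to 0.10.

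The xylosyltransferase Xylt2, which adds the first sugar to the core protein, went from 39.0 ± 0.860 to 29.9 ± 1.44 CPM. The linker kinase Fam20b went from 146 ± 7.65 to 113 ± 2.32 CPM. Both fell, by 0.38 and 0.37 on the log2 scale, with adjusted p = 0.0043 and 0.0021 in the edgeR test. Fam20b lies on chromosome 1 (median -0.21), and relative to it was at -0.17. B4galt7, B3gat3 and Pxylp1 had 0.18, -0.17 and -0.03 and did not pass, though B3gat3 passed as lower without sg-con replicate 1 (-0.25).

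In the genes of chain modification, 4 of 8 tested fell and 2 rose, against 26.3% each way among all genes. Of these, Hs2st1 and Hs6st1 lost the call in settings given below, and 12 of the 20 listed were below the filter. Papss1, which makes the sulfate donor, went from 146 ± 7.09 to 94.1 ± 5.43 CPM, a log2 fold change of -0.63 (SE 0.0704, adjusted p = 0.00035, edgeR with Benjamini-Hochberg adjustment). Slc35b2, which carries the donor into the Golgi, fell by 0.37 (adjusted p = 0.0091). The N-deacetylase/N-sulfotransferase Ndst2 fell by 0.60 (adjusted p = 0.0011), on chromosome 14, where the median of tested genes was -0.38, and was at -0.22 relative to it.

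Its relative Ndst1 had 0.07 and did not pass. Glce, the epimerase that turns glucuronic into iduronic acid, stood at 60.8, 54.5 and 51.6 CPM in sg-con and 80.9, 83.0 and 87.9 CPM in sg-kiaa1522. It rose by 0.59 on the log2 scale (SE 0.0833, adjusted p = 0.00093, edgeR). The 6-O-sulfotransferase Hs6st1 passed as higher with 0.25 (SE 0.0766, adjusted p = 0.027, edgeR) and the 2-O-sulfotransferase Hs2st1 as lower with -0.30 (SE 0.0928, adjusted p = 0.029). Hs6st1 lost the call when any library except sg-con replicate 1 was left out (highest adjusted p = 0.084), and Hs2st1 when any 1 of the sg-kiaa1522 libraries was (highest 0.092). Relative to their chromosomes they were at 0.46 and -0.18.

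In lysosomal breakdown of the chains, 3 of 6 tested genes fell at the adjusted threshold of the edgeR test, against 26.3% of all genes, and the other 3 did not pass. The iduronate sulfatase Ids had -0.49 (SE 0.108, adjusted p = 0.0070), the acetyltransferase Hgsnat -0.46 (SE 0.0836, adjusted p = 0.0030) and the glucosaminidase Naglu -0.40 (SE 0.0990, adjusted p = 0.012). Gusb had 0.07 and did not pass. The sulfamidase Sgsh had 197, 239 and 187 counts in sg-con and 41, 420 and 391 counts in sg-kiaa1522, where replicate 1 lay far below the others. Its log2 fold change was 0.50 (SE 0.550) and did not pass, but without sg-kiaa1522 replicate 1 it was 0.96 (adjusted p = 0.0015, edgeR).

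In processing, shedding and binding partners, 3 of 11 tested genes fell and 1 rose, where the share over all genes was 26.3% in each direction. Ctsl, a lysosomal protease that can cut the heparanase precursor into its active form, stood at 372, 357 and 353 CPM in sg-con and 524, 497 and 514 CPM in sg-kiaa1522. It rose by 0.50 on the log2 scale (SE 0.0546, adjusted p = 0.00030, edgeR with Benjamini-Hochberg adjustment), the reverse of the direction of Hpse. Of the Ctsl exon length, 26.8% is shared with the antisense gene Gm47123.

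Adam10, a membrane protease that can shed syndecans, had 8706, 3258 and 6713 counts in sg-con and 1641, 2667 and 2368 counts in sg-kiaa1522. The means were 359 ± 166 and 140 ± 5.17 CPM (SD, n = 3), since the sg-con libraries spread widely and replicate 2, at 176 CPM, came close to sg-kiaa1522. Adam10 fell with a log2 fold change of -1.36 (SE 0.328, adjusted p = 0.010, edgeR), and the range over left-out libraries was -1.70 to -1.05. Adam17 and Mmp14, other proteases of the cell surface, had -0.14 and -0.09 and did not pass.

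Sumf2, a relative of the enzyme that activates sulfatases, and Prkca, a kinase that binds the Sdc4 tail, fell by 0.34 and 0.27 on the log2 scale with adjusted p = 0.025 and 0.017 in the edgeR test. Neither call was stable. Sumf2 lost it without sg-con replicate 2 or 3 and without sg-kiaa1522 replicate 2 or 3 (highest adjusted p = 0.095), and Prkca without sg-kiaa1522 replicate 1 or 3 (highest 0.057). The syntenin gene Sdcbp, whose protein binds syndecan tails, had 0.10 and did not pass.

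Among heparan sulfate-binding ligands and FGF receptors, 7 of 21 were tested, of which 2 fell and 2 rose, beside 26.3% lower and 26.3% higher of all genes. Fgf1, a ligand of all FGF receptors, stood at 85.3, 82.1 and 87.2 CPM in sg-con and 58.2, 51.3 and 54.8 CPM in sg-kiaa1522, a log2 fold change of -0.63 (SE 0.0742, adjusted p = 0.00044, edgeR with Benjamini-Hochberg adjustment). Pdgfb, a growth factor for mesenchymal cells, stood at 14.7, 13.1 and 14.5 CPM in sg-con and 8.98, 6.11 and 8.30 CPM in sg-kiaa1522, a log2 fold change of -0.86 (SE 0.158, adjusted p = 0.0031, edgeR). Both lay lower in every sg-kiaa1522 library.

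The angiogenic factor Vegfa went from 254 ± 20.4 to 324 ± 4.29 CPM and rose by 0.35 on the log2 scale (SE 0.0710, adjusted p = 0.0046, edgeR). The EGF receptor ligand Areg went from 243 ± 20.8 to 303 ± 6.39 CPM and rose by 0.32 (SE 0.0737, adjusted p = 0.0082, edgeR). Hbegf, Thbs1 and Fgfr3, the one FGF receptor with enough counts, had -0.15, -0.08 and 0.16 and did not pass.

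**Figure D5:**
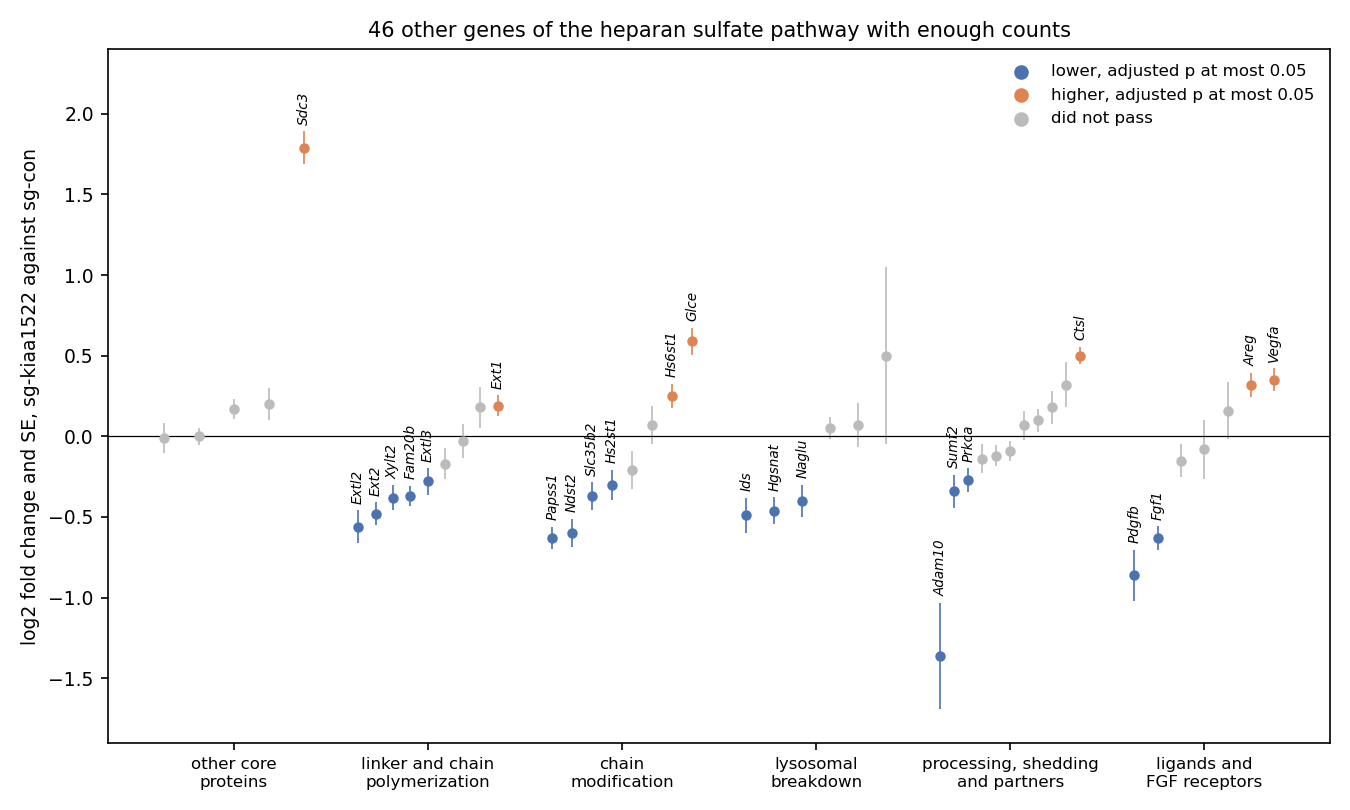
Log2 fold change with its SE, sg-kiaa1522 against sg-con, of the 46 tested pathway genes in 6 lists, coloured by the edgeR call, with names for the genes that passed. Sdc3 stands highest at 1.79 and Adam10 lowest at -1.36, and 22 of the 46 did not pass.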

How the data were processed

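Reads were cleaned of adaptors and rRNA by the authors with Seqtk, mapped to GRCm38 with HISAT2 2.0.4 and counted uniquely mapped fragments per gene with StringTie 1.3.0 (tools and build per the submitters' processing notes and the study's methods). The deposited values are raw counts per gene, 1 file per library. The strand setting and annotation release are not given in the sources used here. Genes with more than 500 counts summed over the 6 libraries (10046 of 34745) were fitted with edgeR 4.0.16 in R 4.3.3, by the quasi-likelihood test with TMM normalization, Benjamini-Hochberg adjustment over all of them and no covariate. A gene was called at an adjusted p of at most 0.05, with or without the added demand of a log2 fold change reaching 1 in size. DESeq2 1.42.0 and the other alternatives are given in the closing section, and both tools were tested on simulated data. Within a group, libraries differed by more than sampling noise (chi-square per degree of freedom at least 12.3). A count floor of 3 corresponds to 0.162 to 0.247 CPM per library and covers counting error only. TPM was computed from the counts and the summed exon length of GENCODE M21. Promoter sequences come from RefSeq. The members and gene lists were chosen with earlier results of these data known. Named pathway genes are up to 4 per list past the adjusted threshold whose groups do not overlap, by size of change, and other genes of the lists were named after their values were seen. Genes most like Hpse were ranked by root-mean-square distance over the libraries, and the window around Hpse was chosen after its values were seen.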

Additional observations from a re-analysis of the deposited data

How the results depend on the processing

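The log2 fold changes of C77080, the tested members and the called pathway genes kept their sign with DESeq2, library size alone, RLE size factors, filterByExpr, no filter, the replicate block and each library left out. Ext1 missed the threshold with no filter (edgeR adjusted p = 0.066), and Agrn passed it with RLE size factors or filterByExpr (0.049 each). With filterByExpr (12141 genes) and with no filter (18499 genes), 812 and 941 genes were lower and 607 and 767 higher past both thresholds, against 436 and 275 with the filter of 500 counts, where fewer genes were tested. Under these filters 19 and 19 pathway genes were lower and 11 and 11 higher at the adjusted threshold. Over all genes, 3109 and 3114 were lower and 3092 and 3084 higher. Past both thresholds, 3 and 3 pathway genes were lower and 4 and 6 higher. With no filter 1 member (Sulf2) was higher, also past both thresholds. With the chromosome median removed, C77080 was at 0.65, Sdc1 at -0.23, Sdc4 at -0.22 and Gpc1 at -0.48, and Extl3 reversed to 0.10, as the median of chromosome 14 is -0.38. Leaving out each library, Hspg2 ranged from -0.29 to -0.12, and the cause of its call without sg-con replicate 3 was not tested. By mean transcript length, TPM in sg-con and sg-kiaa1522 was 29.2 and 2.31 for Hpse, 202 and 193 for Sdc1, 225 and 220 for Sdc4, 309 and 198 for Gpc1, and 86.2 and 77.3 for Hspg2.

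After centring within groups, same-numbered libraries correlated at -0.21, -0.051 and -0.17, and differently numbered ones at -0.071 to 0.2. With 3 libraries per group, these values cannot show whether the replicate numbers pair the libraries. A block on the replicate number gave 2111 lower and 2109 higher genes, against 2639 and 2638. It called 2 members lower, and for the pathway 13 lower and 6 higher genes, of which it shared 13 and 5 with the fit lacking the block. Under it Sumf2, Prkca, Extl3, Hs6st1, Hs2st1 and Ext1 missed the threshold (edgeR adjusted p = 0.054, 0.067, 0.064, 0.068, 0.084 and 0.098), and Cask passed it (0.041). Depth limits the 5 members under the filter, whose groups held at most 16 counts.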

Other observations

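Below the filter of 500 summed counts, 11 further pathway genes had enough counts for edgeR's filterByExpr. Those named here were chosen after their values were seen, and since a gene can pass this filter through the group where it is high, only counts are given. Betaglycan (Tgfbr3), a part-time heparan sulfate proteoglycan and TGF-beta co-receptor, had 0, 2 and 1 counts in sg-con and 23, 43 and 44 in sg-kiaa1522. The FGF carrier Fgfbp1 had 7, 2 and 11 counts in sg-con and 30, 48 and 76 in sg-kiaa1522. Sdcbp2, a relative of syntenin, had 32, 54 and 48 counts against 90, 120 and 98. Fgf18 moved the other way, with 29, 26 and 25 counts against 1, 6 and 5, and Arsg, a lysosomal sulfatase of heparan sulfate, had 46, 39 and 46 counts against 11, 20 and 14.

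Among the markers of the line, the lung transcription factor Nkx2-1 varied within both groups, with 970, 1096 and 227 counts in sg-con and 132, 174 and 671 counts in sg-kiaa1522. Fgf2 also varied within both groups, in other libraries, with 133, 32 and 99 counts in sg-con and 70, 5 and 8 in sg-kiaa1522.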
